A study of Rattus norvegicus with 36 samples.

Results

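Genes downstream of the circadian clock, 10 in all, were followed in rat aorta: Dbp, Tef, Hlf, Nfil3, Nr1d1, Nr1d2, Bhlhe40, Bhlhe41, Usp2 and Wee1. They were taken by symbol from the 26106 genes of the deposited table, each symbol matched 1 row, and all 10 passed the filter on low values that left 13475 genes for testing. Total RNA of the thoracic descending aorta had been sequenced from male rats of 3 strains. SS is the salt-sensitive strain. S2Ba and S2Bb are congenic on it, so all 3 share the SS background outside the introduced piece, which is Brown Norway (BN) sequence of the distal portion (S2Ba) or the middle segment (S2Bb) of chromosome 2. Feeding of a normal salt diet (NS) or a high salt diet (HS, 4% NaCl) began at 4 to 6 weeks of age and went on to 12 to 13 weeks. Libraries with values numbered 6 for SS NS, 5 for SS HS, 6 for S2Ba NS, 5 for S2Ba HS, 6 for S2Bb NS and 6 for S2Bb HS. SS HS replicate 3 and S2Ba HS replicate 2 were not analysed here. Replicate numbers only name libraries and pair none of them. Nothing in the labels ties each sample to an animal of its own, so the p-values cover the spread of the samples, which may be technical. Hour of collection is not given in the sources used here.

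In the mammalian clock, ARNTL (BMAL1) with CLOCK or NPAS2 switches on genes through E-boxes, and the PER and CRY proteins they induce shut them down again. NR1D1 and NR1D2 (REV-ERB alpha and beta) are haem-binding nuclear receptors that repress Arntl and other genes through ROR elements. DBP, TEF and HLF are PAR bZIP activators of D-box genes, and NFIL3 (E4BP4) is the repressor that competes for the same sites. BHLHE40 and BHLHE41 (DEC1 and DEC2) repress at E-boxes. USP2 is a deubiquitinase and WEE1 a kinase that holds back mitotic entry, and both are known as rhythmic outputs in mouse tissues. The rat aorta, like other peripheral tissues, has such a clock, and the level of an output gene such as Dbp swings widely over the day. No member lies on chromosome 2, where the strains differ by design.

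Promoter letters were read from RefSeq (assembly GRCr8), which gave 9 promoters for 8 of the 10 members, 2 of them for Nr1d1; Hlf and Wee1 were not matched. The 6 shown here set the members with an E-box beside Dbp, which had none. Each holds the 250 bases before the start, written 5′ to 3′ on the gene's strand. Capitals mark a match to CACGTG (E-box) or CACGTT (E-box prime), looked for on both strands.
Tef (chr7:115206577-115206826, plus strand): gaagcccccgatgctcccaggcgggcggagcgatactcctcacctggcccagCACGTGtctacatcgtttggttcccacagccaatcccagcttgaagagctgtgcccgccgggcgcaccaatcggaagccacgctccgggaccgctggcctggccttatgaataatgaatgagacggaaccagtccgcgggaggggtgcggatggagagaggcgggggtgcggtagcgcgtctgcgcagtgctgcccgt
Bhlhe41 (chr4:180569356-180569605, minus strand): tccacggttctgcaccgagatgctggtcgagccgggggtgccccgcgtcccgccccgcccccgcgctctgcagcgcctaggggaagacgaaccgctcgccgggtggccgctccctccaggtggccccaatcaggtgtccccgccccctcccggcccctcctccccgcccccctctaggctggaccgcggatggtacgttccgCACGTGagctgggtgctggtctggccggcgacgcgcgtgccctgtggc
Bhlhe40 (chr4:143174200-143174449, plus strand): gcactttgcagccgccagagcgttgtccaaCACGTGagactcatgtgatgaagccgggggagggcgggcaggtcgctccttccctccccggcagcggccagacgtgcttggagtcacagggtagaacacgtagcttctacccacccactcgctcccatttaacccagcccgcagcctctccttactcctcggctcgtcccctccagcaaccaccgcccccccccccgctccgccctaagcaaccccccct
Nr1d1, start 2 (chr10:84229455-84229704, minus strand): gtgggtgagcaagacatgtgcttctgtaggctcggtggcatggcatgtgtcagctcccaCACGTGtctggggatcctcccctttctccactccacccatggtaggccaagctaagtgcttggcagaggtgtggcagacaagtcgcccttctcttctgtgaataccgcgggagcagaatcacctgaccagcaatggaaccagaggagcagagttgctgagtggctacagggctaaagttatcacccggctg
Nr1d1, start 1 (chr10:84231813-84232062, minus strand): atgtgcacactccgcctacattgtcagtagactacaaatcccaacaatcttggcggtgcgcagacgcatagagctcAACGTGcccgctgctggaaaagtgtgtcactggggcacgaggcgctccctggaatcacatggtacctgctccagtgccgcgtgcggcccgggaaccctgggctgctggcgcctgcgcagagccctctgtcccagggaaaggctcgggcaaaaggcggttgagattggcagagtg
Dbp (chr1:105312006-105312255, plus strand): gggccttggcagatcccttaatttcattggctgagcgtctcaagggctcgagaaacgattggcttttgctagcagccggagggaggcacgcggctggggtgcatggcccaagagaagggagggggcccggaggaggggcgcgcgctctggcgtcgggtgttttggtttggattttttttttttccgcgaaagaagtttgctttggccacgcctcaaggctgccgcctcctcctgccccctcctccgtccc
The E-box began 198 bases before the start in Tef, 48 in Bhlhe41, 220 in Bhlhe40 and 191 at start 2 of Nr1d1. At start 1 of Nr1d1 an E-box prime lay on the opposite strand, 174 bases before the start. Of 33469 promoters of 300 bases, 6.42% held CACGTG and 4.83% held CACGTT. The windows of Dbp, Nfil3, Nr1d2 and Usp2 held neither. A D-box (TTATGTAA, in 0.893% of promoters), the looser TTANNTAA (5.84%, which takes in the D-box) and a ROR element (TAGGTCA, 2.63%) were also looked for on both strands over the 300 bases, and none of the 9 windows held any of them. A match describes letters in a window and is not a binding site shown here.

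Values below are normalised read values: the authors' read counts divided by a size factor of the library, where 1 read is worth 0.0659 to 0.12. Depth ranged from 8753735 to 15168833 reads per library. Hlf and Bhlhe41 were the sparsest members, with as few as 5 and 6 reads in a library, so their low values carry a wide counting error. Dbp had 30 to 2633 reads. Levels of different genes are not compared, since values are not per length. In bulk RNA, fewer cells of a type and less RNA per cell cannot be told apart. Smooth muscle markers were high in every library (Myh11, Acta2, Cnn1, Tagln, Myocd and Smtn, together 18657 to 25941), as belongs to aortic tissue.

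The clearest feature of the set was a split among the high salt libraries. Dbp stood at 96.5 or more in 6 of 34 libraries, all on high salt, and at 30.2 or less in the other 28. In SS HS, Dbp was 5.28, 196, 210.1, 150.2 and 96.5 in replicates 1, 2, 4, 5 and 6. In S2Bb HS it was 2.83, 4.25, 5.77, 19.2, 161 and 213 in replicates 1 to 6. In S2Ba HS it was 14.4, 29.1, 30.2, 6.37 and 2.53 in replicates 1, 3, 4, 5 and 6. So 4 of 5 SS HS libraries, 2 of 6 S2Bb HS libraries and no S2Ba HS library were in the upper range. On normal salt Dbp ran from 5.1 to 13 in SS (median 7.97), from 5.29 to 8.93 in S2Ba (median 6.88) and from 8.87 to 23.6 in S2Bb (median 18.5). High salt libraries therefore lay both above and below normal salt ones in S2Ba (3 above, 1 below) and S2Bb (2 above, 3 below).

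**Figure D1:**
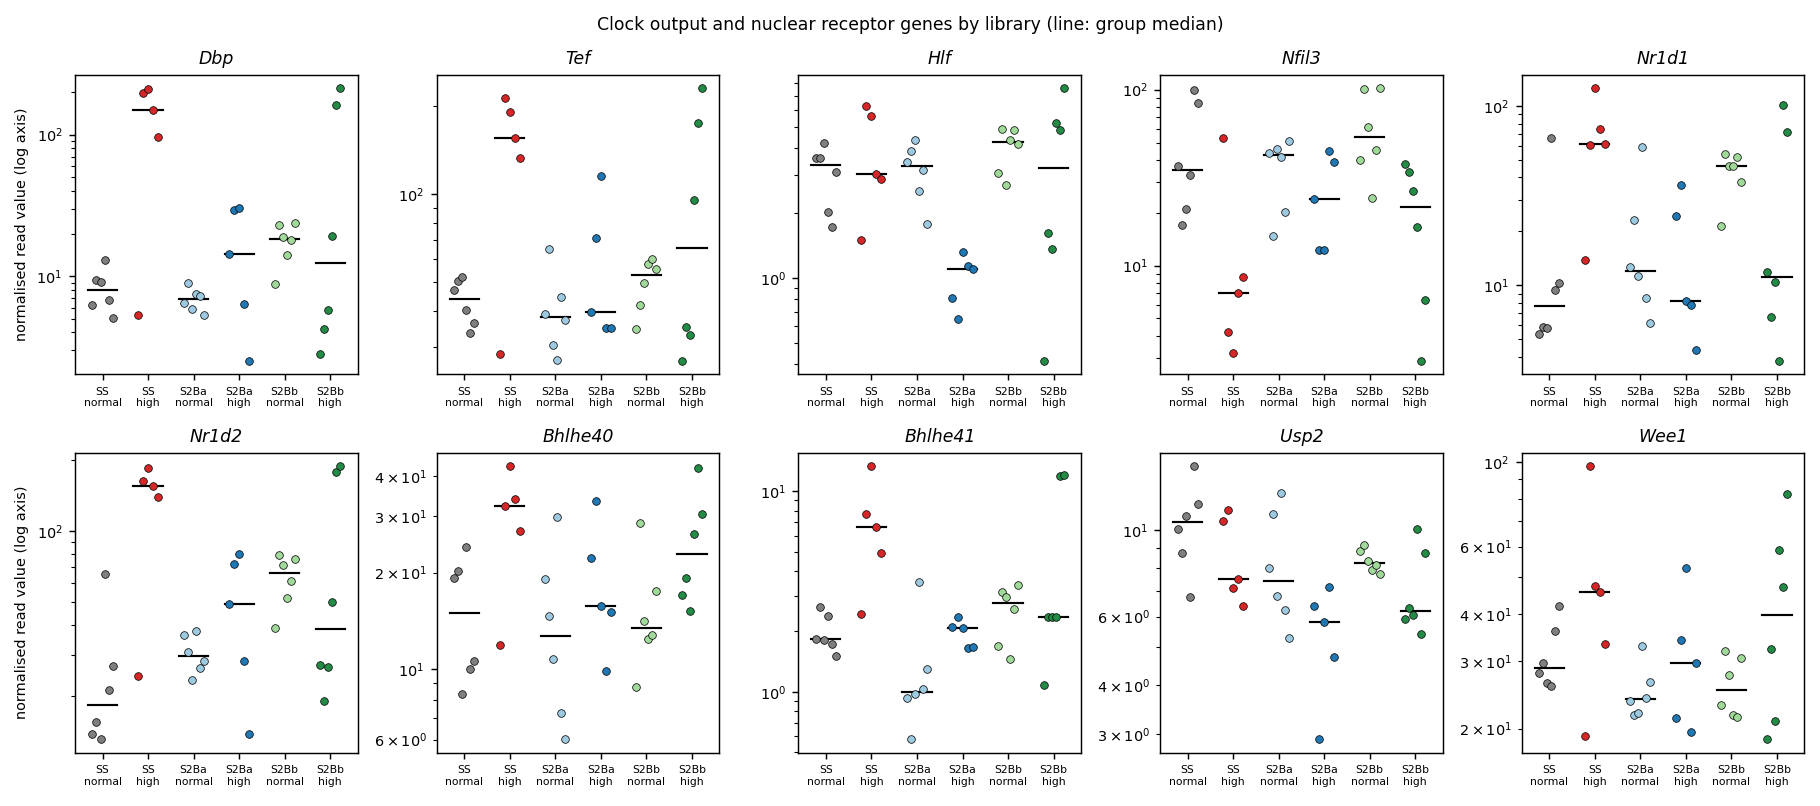
Normalised read value (log axis) of the 10 genes in each of the 34 libraries, by strain and diet, with the group median as a line. The same libraries stand high for Dbp, Tef, Nr1d2 and Bhlhe41 (SS HS replicates 2, 4, 5 and 6, and S2Bb HS replicates 5 and 6) and low for Nfil3.

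The same 6 libraries held the 6 highest values of Tef, Nr1d2 and Bhlhe41 and the 6 lowest values of Nfil3. For Tef these values were 133 to 231 and the next library had 116. For Nr1d2 they were 139 to 187 and the next had 79.7. For Bhlhe41 they were 4.94 to 13.3 and the next had 3.54. For Nfil3 they were 2.88 to 8.61, and the next lowest library had 12.2. The overlap was looser for the other members: 5 of the 6 were among the 6 highest for Nr1d1 and for Bhlhe40, 4 for Hlf and for Wee1, and 1 for Usp2.

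High salt in SS gave the most called members. Of 10 genes, 6 were called (limma, Benjamini-Hochberg adjusted p under 0.05 over all 13475 genes), 5 higher and 1 lower, where 8.38% of all tested genes were called, 4.44% higher and 3.94% lower. The median log2 fold change of the members was 1.17, against -0.018 for all tested genes. Within each strain NS and HS libraries hold separate title numbers (given below), so diet cannot be told apart from what those numbers stand for. The next paragraphs take the members by role.

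Among the PAR bZIP activators, Dbp rose in SS from 8.27 ± 2.83 (SD, n = 6) to 132 ± 83.4 (n = 5), by 3.27 in log2 fold change (SE 0.85, limma adjusted p = 0.0166). The groups overlapped, because SS HS replicate 1 (5.28) lay within the NS range and the other 4 above it. Tef was 47.2, 50.7, 52.3, 40.3, 33.5 and 36.2 in SS NS, and 28.5, 213, 191, 156 and 133 in SS HS replicates 1, 2, 4, 5 and 6. It rose by 1.47 (SE 0.46, adjusted p = 0.0401), with replicate 1 below all NS libraries and the other 4 above. Hlf did not pass the test in SS: it ran from 1.73 to 4.23 on NS and was 1.5, 6.3, 5.63, 3.05 and 2.9 on HS, with a log2 fold change of 0.22 (interval -0.54 to 0.97, adjusted p = 0.751). Only replicates 2 and 4 lay above the NS range of Hlf.

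Nfil3, the D-box repressor, went the other way. It was 36.6, 16.9, 20.9, 32.9, 99.1 and 83.6 in SS NS, and 53.2, 4.18, 3.18, 7.02 and 8.61 in SS HS. It fell by 2.12 on the log2 scale (SE 0.61, adjusted p = 0.029). Of the 5 HS libraries, 4 were below every NS library, and replicate 1 was inside the NS range.

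Both REV-ERB genes rose in SS. Nr1d2 went from 13.9, 15.6, 13.2, 65.5, 21.3 and 26.9 in SS NS to 24.3, 163, 185, 154 and 139 in SS HS, with a log2 fold change of 2.3 (SE 0.53, adjusted p = 0.00877). Nr1d1 went from 5.33, 5.88, 5.76, 66.1, 9.38 and 10.3 to 13.9, 60.4, 126, 74.1 and 61.4, a log2 fold change of 2.34 (SE 0.71, adjusted p = 0.0367). SS NS replicate 4 was high for both, and for Nr1d1 it exceeded 3 of the 5 HS libraries, while its Dbp (13) was the highest of SS NS but far from the upper range. Nr1d1 overlaps Thra on the opposite strand at its 3′ end in mammals, and whether reads were counted by strand is not given in the sources used here, so part of its value may be reads of Thra.

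Of the E-box repressors, Bhlhe41 rose from 1.99 ± 0.436 (n = 6) to 6.99 ± 4.04 (n = 5), by 1.43 in log2 fold change (SE 0.4, limma adjusted p = 0.0246). Of the 5 HS libraries, 4 were above the NS range of 1.5 to 2.64. Bhlhe40 had 4 of 5 above its NS range of 8.32 to 24 as well, at 32.3, 43, 33.9 and 27 with replicate 1 at 11.9, but did not pass (log2 fold change 0.92, interval 0.16 to 1.67, adjusted p = 0.115). Wee1 and Usp2 did not pass either. Wee1 was 19.1, 97.3, 47.4, 45.5 and 33.3 on HS against 25.8 to 41.9 on NS (0.45, interval -0.18 to 1.08, adjusted p = 0.376). Usp2 was 6.39 to 11.3 on HS against 6.75 to 14.6 on NS (-0.27, interval -0.69 to 0.16, adjusted p = 0.443).

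The SS calls leaned on few libraries, and so did calls over all genes. Nr1d2 was the call that passed without each of the 11 SS libraries in turn (adjusted p 0.00101 to 0.0312) and under each of 10 other settings. The count of called members was 1 without SS HS replicate 2, 4 or 5, 3 without replicate 6 and 7 without replicate 1. It was 3 or 2 without SS NS replicate 5 or 6. Calls over all genes, 1129 in the main fit, were 708, 556 or 519 without SS HS replicate 2, 4 or 5. They were 550 without replicate 6, 1323 without replicate 1, and 681 or 525 without SS NS replicate 5 or 6. Over the 11 fits the log2 fold change was 2.92 to 4.22 for Dbp and 1.26 to 1.98 for Tef. Dbp lost its call without SS HS replicate 2, 4 or 5 (adjusted p up to 0.057). Tef (8 of 11 such fits), Nr1d1 (8), Nfil3 (6) and Bhlhe41 (4) also lost theirs. SS HS replicates 4, 5 and 6 have consecutive numbers in their titles, and without all 3 limma called 0 members (1 at an unadjusted p under 0.05) and 5 of all genes. That fit was chosen after seeing the data. It left SS HS with replicates 1 and 2 alone, which lie on opposite sides of the split (Dbp 5.28 and 196). So few libraries could hardly give calls, and the loss says nothing particular about replicates 4, 5 and 6.

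**Figure D2:**
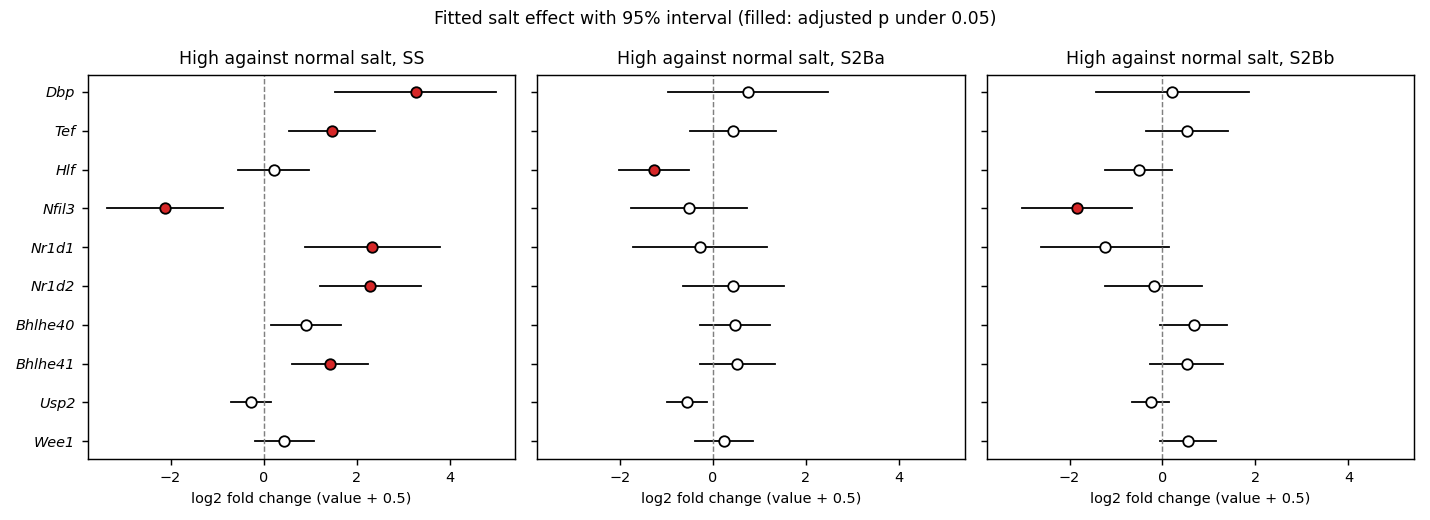
Fitted log2 fold change of value + 0.5, high against normal salt, with its 95% interval for each gene in SS (left), S2Ba (middle) and S2Bb (right); filled points passed at an adjusted p under 0.05. In SS 6 genes passed, Hlf passed in S2Ba and Nfil3 in S2Bb, and most intervals in S2Ba and S2Bb are wide and cross 0.

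In S2Ba, Hlf was the called member, 1 of 10 where 15.2% of all tested genes were called. It was 3.45, 3.88, 4.37, 2.54, 3.16 and 1.79 on NS, and 0.811, 0.648, 1.33, 1.14 and 1.1 on HS, so that all 5 HS libraries lay below all 6 NS libraries. Hlf fell by 1.28 on the log2 scale (SE 0.37, adjusted p = 0.0176). This call passed without each S2Ba library in turn (adjusted p up to 0.0491) and in all 10 other settings. It did not pass when S2Ba NS replicates 1, 2 and 3, whose titles are neighbours, were left out together. The HS values rest on 8 to 16 reads a library. Hlf in S2Ba HS was low whether Dbp was at 29.1 and 30.2 (replicates 3 and 4) or at 6.37 and 2.53 (replicates 5 and 6). Usp2 did not pass, at 5.29 to 12.5 on NS and 6.41, 2.91, 5.83, 7.16 and 4.72 on HS (-0.57, interval -0.99 to -0.14, adjusted p = 0.0609). The interval of Dbp ran from -0.97 to 2.48 (adjusted p = 0.592), which takes in both a fall and a rise.

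In S2Bb, Nfil3 was the called member, 1 of 10 where 22.1% of all tested genes were called. It was 39.7, 101, 61.7, 24.2, 45.4 and 102 on NS, and 37.6, 34.1, 26.6, 16.6, 2.88 and 6.39 on HS. It fell by 1.84 on the log2 scale (SE 0.58, adjusted p = 0.0208), with 3 of 6 HS libraries below the NS range. The call was lost without S2Bb NS replicate 2 or 6 or S2Bb HS replicate 5 or 6 (adjusted p up to 0.0795). Dbp, Tef and Nr1d2 moved in both directions within S2Bb HS. Tef was 27, 35.3, 33, 95.7, 175 and 231 against 34.6 to 59.9 on NS. Nr1d2 was 27.2, 19, 26.6, 50, 177 and 187 against 38.7 to 78.7 on NS. Their mean changes were small or wide: 0.21 for Dbp (interval -1.44 to 1.86, adjusted p = 0.882), 0.52 for Tef (-0.36 to 1.4, adjusted p = 0.417) and -0.19 for Nr1d2 (-1.23 to 0.84, adjusted p = 0.822). Without S2Bb HS replicates 5 and 6 together, the libraries of that group with the highest values of both genes, the log2 fold change was -1.39 for Dbp and -0.23 for Tef, which that choice of libraries lowers by construction. With all libraries, DESeq2 called Dbp higher (DESeq2 adjusted p = 0.0396), alone among the 10 other settings. Nr1d1 was 11.9, 6.68, 10.5 and 3.8 in S2Bb HS replicates 1 to 4, all below its NS range of 21.4 to 54, and 102 and 71.6 in replicates 5 and 6, both above it (-1.23, interval -2.61 to 0.14, adjusted p = 0.196).

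S2Bb HS replicate 4 stood between these. Its Tef (95.7), Hlf (5.26) and Wee1 (58.7) were above the S2Bb NS range, its Dbp (19.2) and Nr1d2 (50) were within it, and its Nr1d1 (3.8) was the lowest of all 34 libraries. S2Ba HS replicate 4 was like it in part, with Tef at 116, Wee1 at 52.8 and Dbp at 30.2 beside Nr1d1 at 8.16. S2Ba HS replicate 3, with Dbp at 29.1, had a higher Nr1d1 (36.4) and a lower Tef (71.2) and Wee1 (34.2) than replicate 4. Its Tef and Wee1 were still above the S2Ba NS ranges (up to 64.9 and 33), and its Nr1d1 was within the NS range (6.19 to 59.2). Members of the set did not, then, move as a single block.

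No member passed between strains on normal salt in the main fit, and the nuclear receptors had the lowest p-values between S2Bb and SS. That fit takes 1 spread per gene from all 6 groups, so the wide high salt spread enters the normal salt tests. For Dbp, S2Bb over SS was 1.05 with an SE of 0.81 (limma adjusted p = 0.616). Its SD was 0.46 in SS NS and 0.51 in S2Bb NS, against 2.17 and 2.63 on HS. A member not called here is therefore not shown to be equal between strains. Nr1d1 was 21.4, 54, 46.3, 46.4, 51.8 and 37.8 in S2Bb NS, above 5 of the 6 SS NS libraries (5.33 to 10.3, with replicate 4 at 66.1). Nr1d2 was 38.7 to 78.7 in S2Bb NS against 13.2 to 26.9 in those same 5 SS NS libraries and 65.5 in replicate 4. The log2 differences, S2Bb over SS, were 1.94 for Nr1d1 (SE 0.68, adjusted p = 0.157) and 1.46 for Nr1d2 (SE 0.51, adjusted p = 0.154), and neither passed. No member was called by limma, where 1.44% of all genes were; 2 members had an unadjusted p under 0.05, as did 13.4% of all genes, and edgeR and DESeq2 called 0. In the fit on these 12 libraries alone Nr1d2 passed (adjusted p = 0.0424). S2Ba against SS on NS gave 0 called members by limma, edgeR or DESeq2 (0.267% of all genes by limma), and 0 at an unadjusted p under 0.05, where 14.5% of all genes were.

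On high salt, Hlf was lower in S2Ba (0.648 to 1.33) than in SS (1.5 to 6.3), with no overlap, a log2 difference of -1.43 (SE 0.39, adjusted p = 0.0492). It was 1 of 10 members called, against 1.73% of all genes. EdgeR called 2 members and 226 of all genes, and DESeq2 3 members and 491. The call was lost without any of SS HS replicates 2, 4, 5 and 6 or S2Ba HS replicates 1, 3, 4 and 6 (adjusted p up to 0.16), and with a pseudocount of 1 or no filter. For 8 of the 10 members the unadjusted p was under 0.05 in this comparison, as it was for 17.2% of all genes. For example, Bhlhe41 was 1.66 to 2.35 in S2Ba HS against 2.44 to 13.3 in SS HS, also with no overlap (-1.43, adjusted p = 0.0694). Dbp differed by -2.72 (interval -4.52 to -0.91, adjusted p = 0.104). Bhlhe41 did pass by edgeR, by DESeq2, on these groups alone and with array weights (adjusted p down to 0.0149). Dbp did by DESeq2 (adjusted p = 0.0164). Both passed by limma without SS HS replicate 1 (adjusted p = 0.0295 and 0.0179), the SS HS library with the lowest Dbp and Bhlhe41. Between S2Bb and SS on HS no member was called by limma, edgeR or DESeq2 (0.267% of all genes by limma), and 2 had an unadjusted p under 0.05. The unadjusted share over all genes was 8.76%.

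The difference in salt response from SS was tested for each congenic strain, and no member passed in either test. For S2Bb against SS, 0 members passed by limma, edgeR or DESeq2 (0.171% of all genes by limma), and 3 had an unadjusted p under 0.05, as did 12.6% of all genes: Nr1d1 (-3.58, SE 0.98, adjusted p = 0.122), Nr1d2 (-2.49, SE 0.73, adjusted p = 0.152) and Dbp (-3.06, SE 1.17, adjusted p = 0.271). Nr1d1 passed without S2Bb HS replicate 6 (adjusted p = 0.0491) and Nr1d2 without SS HS replicate 1 (adjusted p = 0.0463). For S2Ba against SS, 0 passed by limma, edgeR or DESeq2, as did 0% of all genes by limma, with 4 members and 9.71% of all genes at an unadjusted p under 0.05. The lowest adjusted p there was that of Hlf (-1.49, SE 0.52, adjusted p = 0.368). All strain and interaction comparisons share the SS libraries.

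Spread within groups was itself unusual. The SD of log2(value + 0.5) of Dbp was 2.63 in S2Bb HS, 2.17 in SS HS and 1.43 in S2Ba HS, against 0.46, 0.25 and 0.51 in SS, S2Ba and S2Bb NS. The median tested gene had an SD of 0.17 to 0.26. With Dbp itself counted, an SD as large as that of Dbp was found in 0.00742% of tested genes in S2Bb HS and 0.0148% in SS HS. The share was 0.156% in S2Ba HS and 53.1% in S2Ba NS. In S2Bb HS no tested gene other than Dbp was as spread. Nfil3 varied on both diets, with an SD of 0.73 to 1.02 on NS and 0.87 to 1.52 on HS. Usp2 had an SD of 0.09 in S2Bb NS, below the median tested gene there (0.19), and of 0.34 to 0.46 in the other 5 groups, above it. These shares are a description and no test.

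The sample titles end in a number whose meaning the labels do not give. Within a group, libraries whose numbers lie within 10 of the next were put in 1 run, which gave 19 runs, 20 pairs of libraries from the same run and 60 pairs from different runs. Dbp differed by a mean of 0.54 on the log2 scale within runs and 1.64 between runs, a ratio of 0.33. The median tested gene had a ratio of 0.91, and 0.0297% of tested genes, Dbp included, had one as low. Tef (0.34), Nr1d2 (0.37), Hlf (0.46), Wee1 (0.49) and Nr1d1 (0.51) were similar, Nfil3 (0.64), Bhlhe41 (0.69) and Usp2 (0.74) less so, and Bhlhe40 (0.89) was near the median gene. In examples from the high salt groups, Dbp was 161 and 213 in the run of S2Bb HS replicates 5 and 6, 4.25 and 5.77 in that of replicates 2 and 3, and 210.1, 150.2 and 96.5 in that of SS HS replicates 4, 5 and 6. An exception was Nr1d1 in the run of S2Ba NS replicates 4, 5 and 6, at 59.2, 8.55 and 6.19. Whether the numbers stand for a shared day, hour or litter was not tested and cannot be read from the labels.

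**Figure D3:**
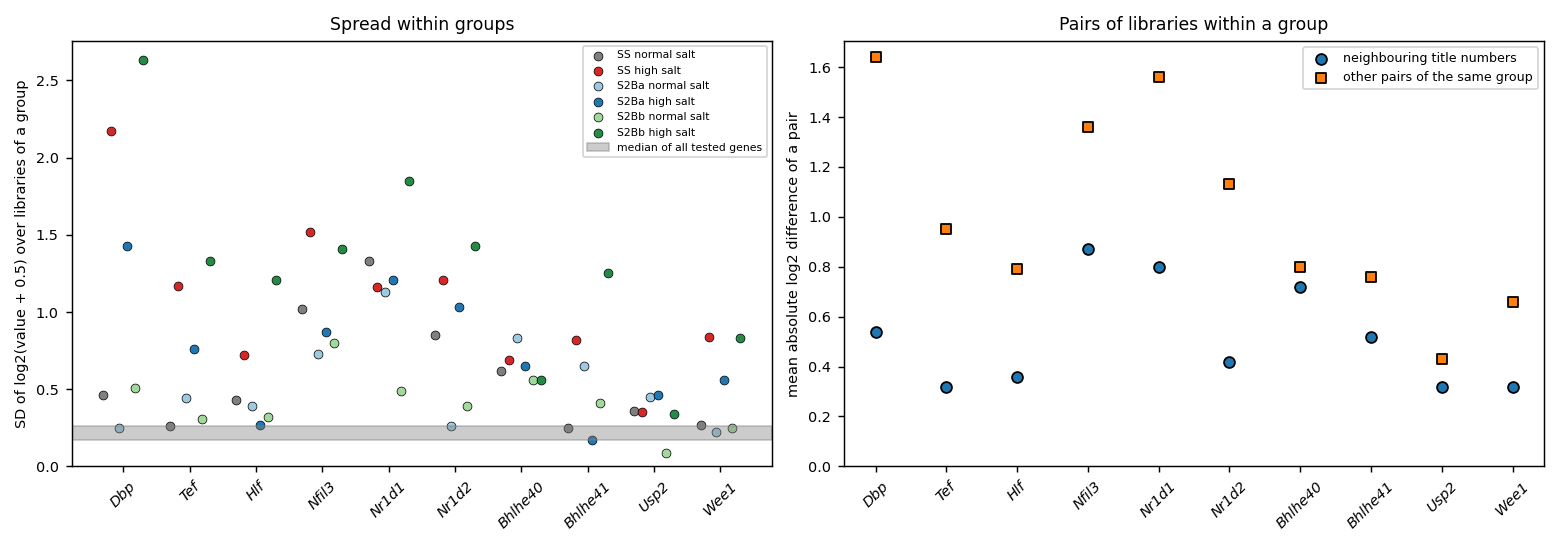
Left, SD of log2(value + 0.5) of each gene over the libraries of a group, with the range of the median tested gene in grey; Dbp reaches 2.63 in S2Bb HS. Right, mean absolute log2 difference between 2 libraries of a group, with pairs pooled over diets. Circles are pairs with neighbouring title numbers (20 pairs), and squares are other pairs (60 pairs). For Dbp the means are 0.54 and 1.64.

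The core clock genes were read beside the members. Arntl, the activator gene that REV-ERB proteins repress, mirrored Dbp. It was 60.1 to 87.2 in SS NS, 71.3 to 87 in S2Ba NS and 57.3 to 72.6 in S2Bb NS. In SS HS it was 74.3, 2.43, 4, 6.77 and 11.4 in replicates 1, 2, 4, 5 and 6, and in S2Bb HS 82.9, 79.9, 80.2, 20.6, 4.44 and 2.83. The 6 lowest Arntl values were in the 6 libraries with the highest Dbp, and those with the 6 highest Per3 and Ciart were the same 6. Per3, a period gene, was 64.9 to 147 there, and the next library had 63.1. Ciart, a repressor of CLOCK and BMAL1, was 3.24 to 14 there, and the next library had 1.3. Per1 and Per2 followed less closely, with 3 of these 6 libraries among their 6 highest.

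**Figure D4:**
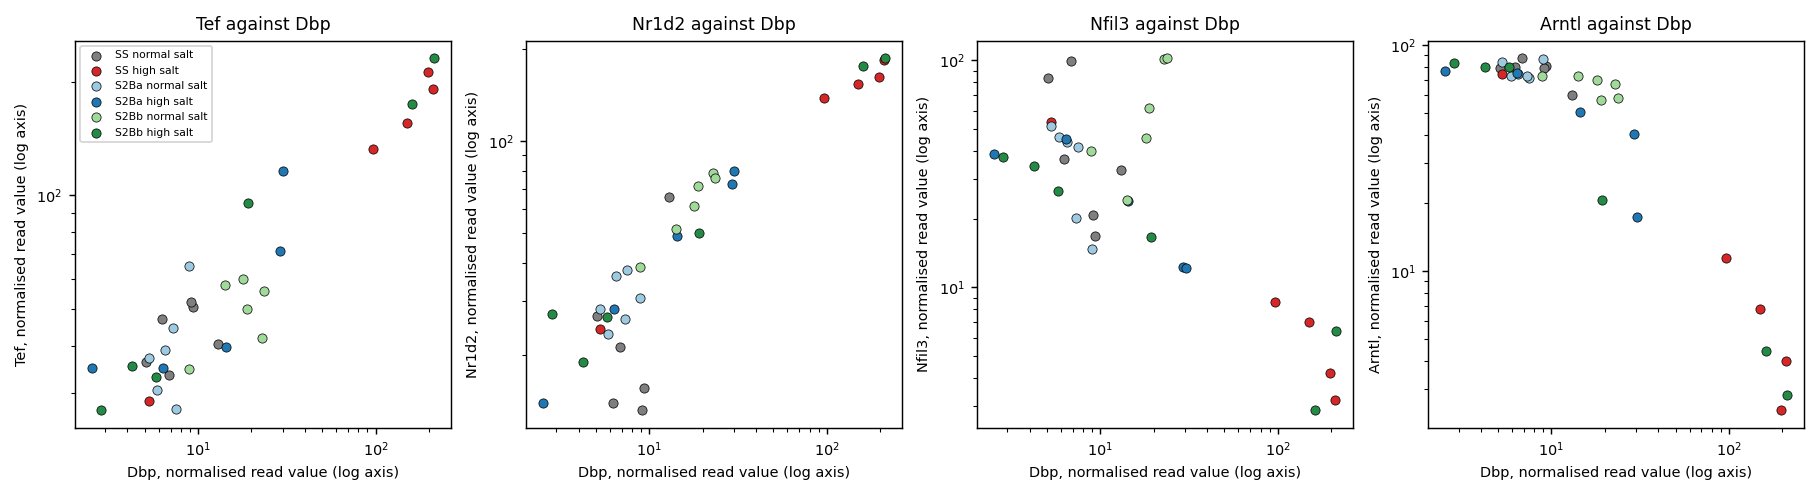
Tef, Nr1d2, Nfil3 and Arntl (vertical, log axes) against Dbp (horizontal, log axis), in normalised read values, 1 point per library coloured by strain and diet. The 6 high salt libraries with Dbp of 96.5 to 213 sit apart, high for Tef and Nr1d2 and low for Nfil3 and Arntl, and 3 high salt libraries with Dbp of 19.2 to 30.2 have intermediate Arntl (17.4 to 40.3).

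Of 18 core clock genes, 16 were tested. In SS, 5 of 16 were called on high salt, against 8.38% of all tested genes. Arntl (-3.00, adjusted p = 0.00643), Npas2 (-2.05, adjusted p = 0.00643) and Clock (-0.60, adjusted p = 0.0098) fell, and Ciart (2.96, adjusted p = 0.00605) and Per3 (1.83, adjusted p = 0.032) rose. Per1 (0.68, adjusted p = 0.36), Per2 (0.07, adjusted p = 0.921) and Cry1 (-1.09, adjusted p = 0.106) did not pass. In S2Ba, 2 of 16 were called, where 15.2% of all tested genes were: Npas2 lower (-1.37, adjusted p = 0.0374) and Arntl2 higher (0.80, adjusted p = 0.0281). In S2Bb, 6 of 16 were called, against 22.1% of all tested genes. Npas2 (-1.84, adjusted p = 0.00231), Clock and Csnk1e fell, and Rora, Cry2 and Arntl2 rose. Npas2, the partner of ARNTL that stands in for CLOCK, was the list's gene called in each strain. It was 54.1 to 120.3 over all NS libraries, and in S2Bb HS replicates 1 to 3, where Dbp was lowest in that group, it was 41.6, 51.9 and 53.8 against 77.3 to 95.5 in S2Bb NS. Arntl in those 3 libraries was 82.9, 79.9 and 80.2, above its NS range of 57.3 to 72.6.

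The genes most like Dbp across the 34 libraries were Per3, Gprin3, Tcap, Ciart and Epm2a, by Pearson r of 0.95, 0.94, 0.93, 0.92 and 0.89 after the group means were taken off (Spearman rho 0.72 to 0.89). Those most opposed were Arntl (r = -0.95, rho = -0.82), Leo1 (-0.85, -0.75) and Clock (-0.84, -0.69). Without the 2 libraries farthest from the median of Dbp, r was 0.92 for Per3 and -0.91 for Arntl. Since Dbp falls into a low and a high range, r mainly reads that split, and it is given as a description with no p. By the same measure members followed Dbp in the order Tef and Nr1d2 (r = 0.93 and 0.92), Bhlhe41 (0.81), Wee1 (0.72), Hlf and Nr1d1 (both 0.70), Bhlhe40 (0.61) and Usp2 (-0.07), with Nfil3 at -0.78. Outside the set, the genes most like Bhlhe40 were Por (0.79), Rtn4rl1 (0.74), Ets1 (0.73), Ebf1 and Dusp7 (both 0.71). Derl1 (-0.68), Rp2 (-0.67) and Nup88 (-0.66) were most opposed. Clock genes were not far behind, with Nr1d1 at 0.70 and Per3 and Nr1d2 both at 0.64. With group means left in, the genes most like Bhlhe40 were G6pc3 (0.75), Ciart (0.73), Per3 (0.72), Map3k6 (0.71) and Dusp7 (0.70). Points share library and depth.

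Other gene groups were read beside the salt effect in SS, for which 8.38% of all tested genes were called and 24.8% had an unadjusted p under 0.05. Of 10 tested glucocorticoid response genes, 1 rose (Mt2A) and 5 had an unadjusted p under 0.05. Their summed values were 767 to 1503 on NS and 1013 to 2062 on HS. Of 11 immediate early genes none passed by limma, with 3 at an unadjusted p under 0.05 (summed 542 to 1956 on NS, 591 to 2647 on HS), and of 8 hypoxia targets none passed, also with 3 such genes (339 to 433, 338 to 461). Of 5 other output genes, 1 fell (Lonrf3) and 2 had an unadjusted p under 0.05 (summed 209 to 279 on NS, 172 to 273 on HS). Among markers of cell types, none of 6 smooth muscle, 6 adipocyte, 2 brown adipocyte, 5 macrophage, 1 T cell, 4 skeletal muscle, 2 Schwann and neuron and 2 red cell genes tested was called by limma, and 2, 2, 0, 0, 0, 0, 1 and 2 of them in that order had an unadjusted p under 0.05. Endothelial markers fell in 2 of 5 (Cdh5 and Kdr; summed 231 to 456 on NS and 246 to 434 on HS) and fibroblast markers in 1 of 5 (Pdgfra; 1989 to 3116 and 1332 to 2548). Adipocyte markers summed to 96.6 to 696 on NS and 92.3 to 223 on HS, and red cell markers to 15.8 to 164 and 87.4 to 318. No listed marker in the table was at 0 in all libraries, and the part of these cells in the members' values was not tested.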

How the data were processed

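Total RNA libraries of rat aorta were analysed from the authors' deposited table of 1 signal value per gene and library. The tools named in the submitters' processing notes are STAR 2.3.1, edgeR 3.6.8, R 3.2.3, bcl2fastq 1.8.4 and FastQC. The sources used here give no genome build, annotation, counter or strand setting. The deposited signal is not a count: within a tolerance of 0.01, 100% of values were whole multiples of the value of 1 read, so reads and depth could be recovered. Rows without a symbol (29) held at most 0.0195% of a library's reads.

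The values were tested with limma 3.58.1 (R 4.3.3, intensity trend, 2-sided) on log2(value + 0.5), with 1 mean per group over all 6 groups, for the 13475 genes with a mean of at least 0.5. Fold changes are on that scale, which understates the change of low genes. Contrasts numbered 9, with Benjamini-Hochberg adjustment over all tested genes and calls at an adjusted p under 0.05. The recovered reads were also tested with edgeR 4.0.16 (quasi-likelihood) and DESeq2 1.42.0. The fits were run on simulated data with known changes. Those counts were independent, with the same dispersion for all genes and no split within groups. The run therefore does not give error rates for members as spread as these. All members were named, with the clock genes Arntl, Per1, Per2, Per3, Cry1, Ciart and Npas2, and the 5 genes most like and 3 most unlike Dbp and Bhlhe40; genes beyond these are named as called members of a list. The members, gene lists and tests were chosen with earlier results of these data known. No 2 libraries agreed within sampling noise.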

Additional observations from a re-analysis of the deposited data

Results flagged for a closer look

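Of 60 tests for a library far from the rest of its group (10 genes in 6 groups, unlogged values), 6 found one. The nominal rate of 1 in 20 supposes normally distributed values and independent tests. Genes that move together in a library break the second, so the 6 are not set against that rate. In SS HS, replicate 1 had Nfil3 at 53.2 against 3.18 to 8.61 in the other 4 libraries, and Nr1d2 at 24.3 against 139 to 185. In SS NS, replicate 4 had Nr1d1 at 66.1 against 5.33 to 10.3 in the other 5, and Nr1d2 at 65.5 against 13.2 to 26.9. In S2Ba NS, replicate 4 had Nr1d1 at 59.2 against 6.19 to 23.1, and Bhlhe41 at 3.54 against 0.582 to 1.3. Per1 in that last library was 163, the highest of the 6 S2Ba NS libraries, while its Dbp (7.51) was within their range. The split of S2Bb HS, with 2 libraries apart from the other 4, is of a kind that this test of a single library does not find.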

How the results depend on the processing

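Of the 9 calls, those of Nr1d2 in SS and Hlf in S2Ba passed in all 10 other settings and without each library in turn. Called members for salt in SS numbered 2 with no filter on low values and 4 by edgeR or DESeq2. DESeq2 called 2 for salt in S2Ba (Hlf and Usp2, both lower), where it called 2527 of all genes. It called 2 in S2Bb (Nfil3 lower and Dbp higher), where it called 3314. S2Ba against SS on high salt gave 0 with a pseudocount of 1 or no filter, 2 by edgeR, on the contrast's groups alone or with array weights, and 3 by DESeq2. S2Bb against SS on normal salt gave 1 on its groups alone. Leaving out libraries, singly or by title run (the runs chosen after seeing the data), gave 0 to 7 for salt in SS, 0 to 2 in S2Ba, 0 to 2 in S2Bb, 0 to 4 for S2Ba and 0 to 3 for S2Bb against SS on high salt, and 0 to 3 for the S2Bb interaction. Both counts of 3 came without S2Bb HS replicates 5 and 6, which had the highest Dbp of that group, so they show nothing about the strain. The 0 for salt in SS came with SS HS replicates 1 and 2 alone left in that group. Directions reversed for salt in S2Bb: Nr1d2 (0.37 by edgeR, 0.36 by DESeq2, -1.07 to 0.42 over left-out libraries, 0.10 without HS replicate 2), Dbp (-1.39 to 1.16, with -0.39 and -0.47 without HS replicate 5 or 6) and Tef (-0.23 to 1.04). Usp2 in SS ranged from -0.38 to 0.10. The cause was not tested.

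Counts over all genes also moved. Over left-out libraries or runs they were 5 to 1882 for salt in SS, 595 to 2409 in S2Ba and 1747 to 3022 in S2Bb. The 5 came with SS HS replicates 1 and 2 alone left in that group. On high salt they were 7 to 448 for S2Ba and 8 to 78 for S2Bb against SS, and for the S2Bb interaction 0 to 102. With no filter they went from 1129 to 723 for salt in SS, 233 to 103 for S2Ba against SS on high salt and 23 to 1 for the S2Bb interaction. DESeq2 gave 156 (main 36), 491 (233), 366 (194) and 70 (36) for the 4 strain comparisons, S2Ba on normal and high salt and then S2Bb, and 10 (0) and 124 (23) for the interactions. On the contrast's groups alone they were 1093 (2042) for salt in S2Ba, and 6 (36) and 360 (233) for S2Ba against SS on normal and high salt. Array weights gave 1812 for salt in SS, 9 and 581 for S2Ba, 74 for S2Bb on high salt and 76 for the S2Bb interaction. Upper quartile scaling, TMM scaling and edgeR each gave 1 (0) for the S2Ba interaction. Shifting the run gap to 2 or 100 gave Dbp ratios of 0.35 and 0.29. With group means left in, the 5 genes most like Dbp were the same, but of those most like Bhlhe40 only Dusp7 stayed. No paired analysis was possible because replicate numbers come from the order of the records. Depth limits Hlf and Bhlhe41 most.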
